A study of Homo sapiens with 8 samples.

Results

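The genes of ribosome-associated quality control on the 60S subunit were followed sgRNA by sgRNA in a CRISPRi growth screen: NEMF, LTN1, TCF25, ANKZF1, VCP, NPLOC4 and UFD1L (UFD1 in RefSeq). The 7 genes were taken by symbol, with the sgRNAs of their P1P2 promoter set, out of 17547 genes that have a P1 or P1P2 set. Of the 70 sgRNAs listed for them, 35 had counts and 34 passed a mean count of at least 20 over the libraries. Each gene kept 5 sgRNAs except VCP, which kept 4.

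The cells were K562, a human leukemia line, which carried dCas9-KRAB, a Cas9 without cutting activity joined to a repressor that lowers transcription at the promoter an sgRNA matches. All groups had the same library of sgRNAs and puromycin at 1 µg/ml for 3 days. They differed in the stably expressed uL16, the 60S ribosomal protein encoded by RPL10. The groups were mutant uL16 at day 9, mutant uL16 at day 0, wild-type uL16 at day 9 and wild-type uL16 at day 0, with 2 libraries each. The labels call the mutant delta without saying which mutation it was, whether the lines were clones or whether replicates came from separate cultures, so the p-values measure the spread between these libraries only. The design text sets the end of the growth period at 10 doublings and states as its aim the search for factors that act on defective large subunits. Total counts per library ranged from 39233340 to 143585751. The libraries hold sgRNA sequences from genomic DNA, so neither the knockdown of a gene nor a cell type marker can be read from them.

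When a ribosome stalls and its subunits are split apart, the 60S subunit keeps a nascent chain that is still joined to its tRNA. NEMF binds this complex, recruits the ubiquitin ligase LTN1 and extends the chain with a C-terminal tail. TCF25 helps LTN1 build the ubiquitin chain (known mainly from its yeast homolog Rqc1), and ANKZF1 cuts the chain from its tRNA. The AAA ATPase VCP, also called p97, draws the ubiquitinated chain off with the cofactor pair NPLOC4 and UFD1L, and acts on many other ubiquitinated proteins in the cell.

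CRISPRi works at the promoter, so the RefSeq windows (GRCh38.p14) of the members whose sgRNAs went down most are shown. Each has 250 bases before the annotated start and 50 after it, 5′ to 3′ on the gene's strand. NEMF is at chr14:49852739-49853038, LTN1 at chr21:28992828-28993127 and VCP at chr9:35072576-35072875, all 3 on the minus strand. Capitals mark CCAAT or its reverse complement ATTGG, and CCGGAA or its reverse complement TTCCGG.
NEMF: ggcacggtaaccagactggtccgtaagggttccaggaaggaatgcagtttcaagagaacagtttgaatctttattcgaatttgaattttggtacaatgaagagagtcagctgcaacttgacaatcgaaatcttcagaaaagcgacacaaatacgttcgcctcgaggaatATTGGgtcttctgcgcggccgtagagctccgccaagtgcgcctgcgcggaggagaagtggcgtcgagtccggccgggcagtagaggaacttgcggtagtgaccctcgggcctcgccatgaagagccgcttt
LTN1: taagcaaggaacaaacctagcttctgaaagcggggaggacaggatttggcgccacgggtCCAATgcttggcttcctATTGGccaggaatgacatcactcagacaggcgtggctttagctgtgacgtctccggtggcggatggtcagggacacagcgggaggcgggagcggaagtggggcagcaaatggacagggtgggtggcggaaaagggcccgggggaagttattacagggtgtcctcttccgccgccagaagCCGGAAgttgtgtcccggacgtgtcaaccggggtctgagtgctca
VCP: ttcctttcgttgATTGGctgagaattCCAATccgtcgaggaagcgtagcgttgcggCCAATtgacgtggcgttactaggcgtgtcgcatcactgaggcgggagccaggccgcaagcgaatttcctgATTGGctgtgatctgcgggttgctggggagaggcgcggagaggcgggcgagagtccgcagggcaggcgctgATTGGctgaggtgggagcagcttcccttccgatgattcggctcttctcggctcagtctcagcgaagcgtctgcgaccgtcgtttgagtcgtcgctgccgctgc
CCAAT was found 1 time in the NEMF window, 2 times in LTN1 and 5 times in VCP, counting both strands, while 34.6% of 35116 RefSeq windows of this length hold it. CCGGAA was found 1 time, in LTN1 (17.2% of windows hold it). GGGCGG (44.95% of windows) and TATAAA (11.5%) were searched on both strands too and are in none of the 3. The windows hold 37 (NEMF), 65 (LTN1) and 42 (VCP) GG dinucleotides over both strands, the bases of the PAM that Cas9 needs beside its target.

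The summed sgRNA levels of NEMF and LTN1 fell during growth in both lines. VCP and NPLOC4 each had single sgRNAs that fell while their sums did not pass the test, and TCF25, ANKZF1 and UFD1L had none. Per gene, the sgRNA counts were summed and tested with edgeR's quasi-likelihood test, with Benjamini-Hochberg adjustment over 17547 genes and a threshold of 0.05. In mutant cells 2 of 7 members fell and 0 rose, where 9.07% of all genes fell and 0.798% rose. In wild-type cells 2 of 7 fell and 0 rose, where 9.28% of all genes fell and 0.986% rose. They were NEMF and LTN1 in each line. The median log2 change of the 7 was -0.08 in mutant cells, against 0.01 over all genes, and -0.15 in wild-type cells, against 0.01 over all genes.

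**Figure D1:**
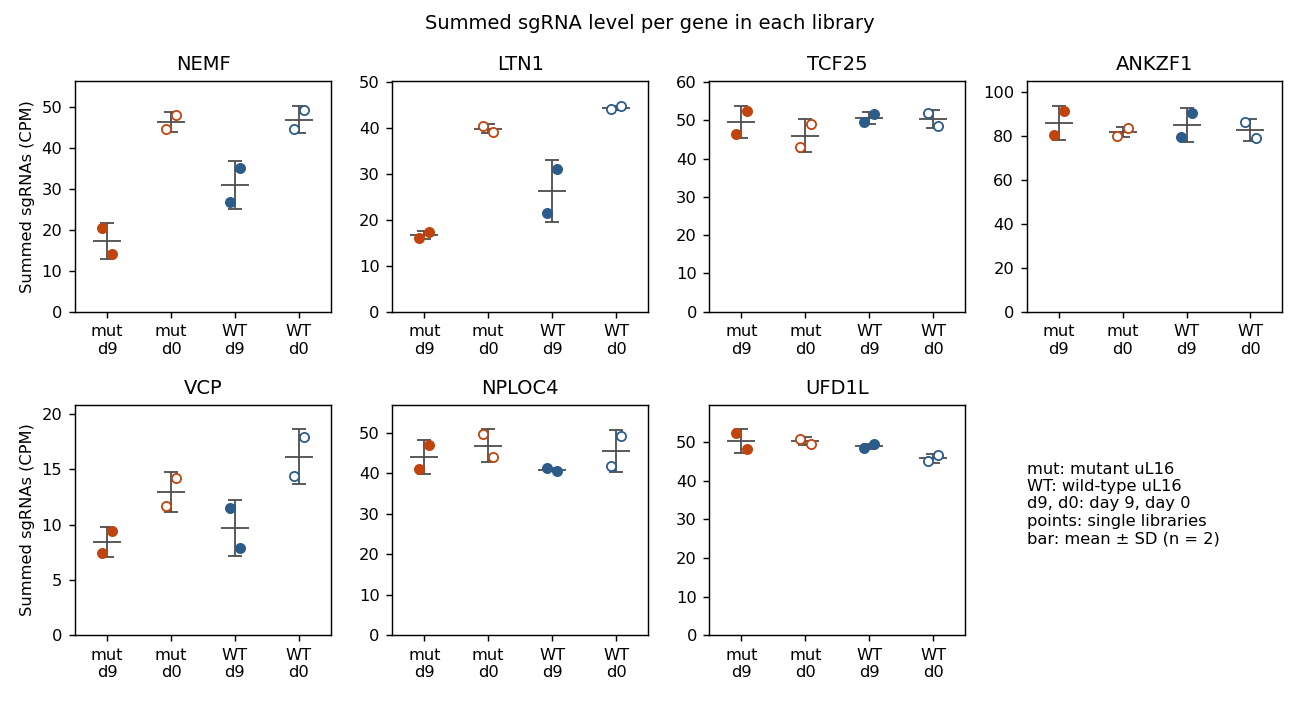
Summed sgRNA level of each gene in CPM (library-scaled counts, linear axis from 0) in the 8 libraries, with filled points for day 9, open points for day 0 and bars for the mean ± SD of 2 libraries. For NEMF and LTN1 the day 9 libraries lie below the day 0 libraries in both lines, and the mutant day 9 libraries below the wild-type ones. For LTN1 the mutant day 0 libraries also lie below the wild-type ones.

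NEMF, the factor that recognises the split 60S complex, had summed levels of 20.4 and 14.1 CPM (counts scaled to the size of the library) in mutant cells at day 9, against 44.6 and 48.0 CPM at day 0. In wild-type cells it reached 26.8 and 35.0 CPM at day 9, against 44.5 and 49.3 CPM at day 0. The day 0 libraries of both lines lay together, and the mutant day 9 libraries were the lowest of all. NEMF fell by 1.44 on the log2 scale in mutant cells (SE 0.15, adjusted p = 3.52e-09 by edgeR), to 0.368 of its day 0 level. In wild-type cells it fell by 0.60 (SE 0.15, edgeR adjusted p = 0.00475), to 0.66 of its day 0 level. The wild-type call was lost without wild-type day 0 replicate 2 (adjusted p = 0.126), without wild-type day 9 replicate 1 (adjusted p = 0.106) and without the most abundant sgRNA (adjusted p = 0.142), among alternatives from 0.000174 to 0.142.

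LTN1, the ubiquitin ligase, had 16.03 and 17.3 CPM in mutant cells at day 9, against 40.5 and 39.1 CPM at day 0. The wild-type cells had 21.6 and 31.1 CPM at day 9, against 44.1 and 44.7 CPM at day 0. Again the day 9 libraries did not overlap those of day 0, and both mutant day 9 libraries lay below both wild-type ones. Unlike for NEMF, both mutant day 0 libraries also lay below both wild-type ones, by a smaller margin. The log2 change of LTN1 was -1.25 in mutant cells (SE 0.15, edgeR adjusted p = 4.49e-08) and -0.75 in wild-type cells (SE 0.15, edgeR adjusted p = 0.000265). Without its most abundant sgRNA the wild-type value was -0.54 and no longer passed (adjusted p = 0.072, in a range from 3.58e-06 to 0.072).

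The comparison between the lines addresses the aim of the study. For NEMF the difference of the log2 changes, mutant minus wild-type, was -0.84 (SE 0.21, 95% interval from -1.28 to -0.41). With single libraries left out it ran from -1.12 to -0.58, the latter without mutant day 9 replicate 2. For LTN1 the difference was -0.50 (SE 0.21, interval from -0.93 to -0.07), and -0.21 without wild-type day 9 replicate 2. By size NEMF stood in place 25 and LTN1 in place 98 of 17547 genes counted from the lowest difference, and ZNF574, the gene the study is named for, in place 1 at -2.03 (SE 0.20). Neither member passed adjustment over all genes (edgeR adjusted p = 0.396 for NEMF and 0.865 for LTN1), so 0 of 7 members were called, where 0.0171% of all genes were. At an unadjusted p under 0.05 there were 2 of 7 members and 997 of 17547 genes, and DESeq2 called 0 of 7, with NEMF at an adjusted p of 0.0536. NEMF did pass in edgeR without wild-type day 9 replicate 1 (-1.03, adjusted p = 0.0261) and without mutant day 9 replicate 1 (-1.12, adjusted p = 0.0382), among alternatives from 0.0261 to 1.0.

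**Figure D2:**
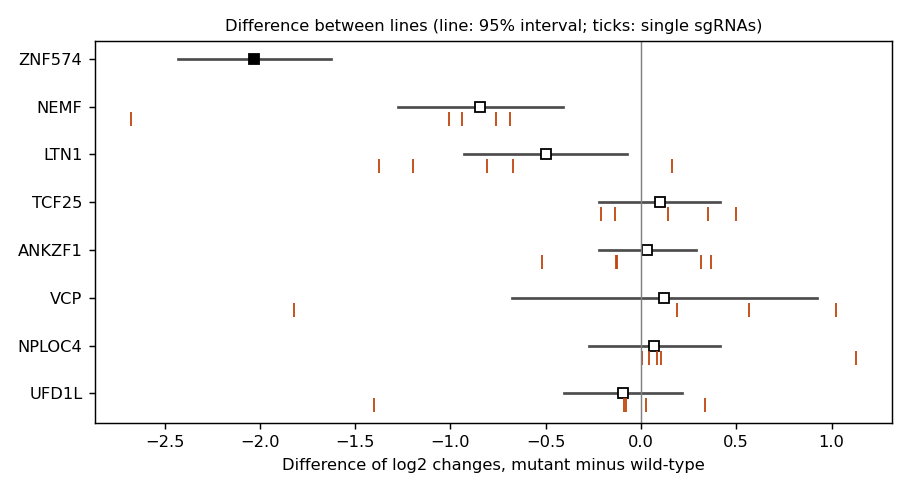
Difference of the log2 changes between lines for ZNF574 and the 7 genes: squares are edgeR values from the summed counts (filled where the adjusted p is under 0.05), lines are 95% intervals, and ticks are the single sgRNAs of the 7 genes. The intervals of NEMF (-1.28 to -0.41) and LTN1 (-0.93 to -0.07) lie below 0, and those of the other 5 members include 0.

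The sgRNAs of NEMF all pointed the same way in this difference. They are named here by their distance downstream of the gene's first kept sgRNA, in bases along the gene's strand, from the positions in their names. For ANKZF1 and UFD1L the gene strand was not at hand. Their distances count up from the lowest position and need not run downstream. All 5 NEMF sgRNAs were lower in the mutant line, with differences from -2.67 to -0.69. Of the 16778 genes with 5 kept sgRNAs, 3.41% had 5 of 5 below 0. For LTN1 it was 4 of 5, with differences from -1.37 to 0.16, and 19.8% of genes had 4 or 5 of 5 below 0. Over single sgRNAs edgeR called 0 of 34 in the difference, and 0% of all 89791 kept sgRNAs, with 6 of 34 at an unadjusted p under 0.05.

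The largest of these differences was that of the NEMF sgRNA at 76 bases. It had 0.427 and 0.736 CPM in mutant cells at day 9, against 8.77 and 9.03 CPM at day 0. Wild-type cells had 4.601 and 3.52 CPM at day 9, against 8.38 and 10.2 CPM at day 0. It thus began alike in both lines and ended several times lower in both mutant libraries than in either wild-type one. Its log2 change was -3.87 (SE 0.38, edgeR adjusted p = 3.8e-08) in mutant and -1.19 (SE 0.33, adjusted p = 0.0223) in wild-type cells. The wild-type call was lost without wild-type day 0 replicate 1 (0.0868) or 2 (0.297), wild-type day 9 replicate 2 (0.122), or mutant day 0 replicate 1 (0.0631) or 2 (0.0659), given as edgeR adjusted p. The difference of -2.67 (SE 0.48) did not pass over all sgRNAs in edgeR (adjusted p = 0.145).

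The other NEMF sgRNAs changed less. Those at 26 and 251 bases fell in mutant cells, with log2 changes of -1.73 (SE 0.26, edgeR adjusted p = 2.87e-05) and -1.65 (SE 0.30, adjusted p = 0.000366). In wild-type cells the first of these was at -0.97 (SE 0.25, adjusted p = 0.0148) and the second at -0.64 (SE 0.30, adjusted p = 0.308). The call at 26 bases in wild-type cells was lost without wild-type day 0 replicate 1 (adjusted p = 0.126) or 2 (0.130) and without wild-type day 9 replicate 1 (0.127). The sgRNA at 0 bases was at -1.81 (SE 0.58) in mutant and -0.87 (SE 0.56) in wild-type cells and was called in neither. The sgRNA at 35 bases, which by its name lies close to the one at 26, was at -0.27 (SE 0.26) in mutant and 0.42 (SE 0.26) in wild-type cells.

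**Figure D3:**
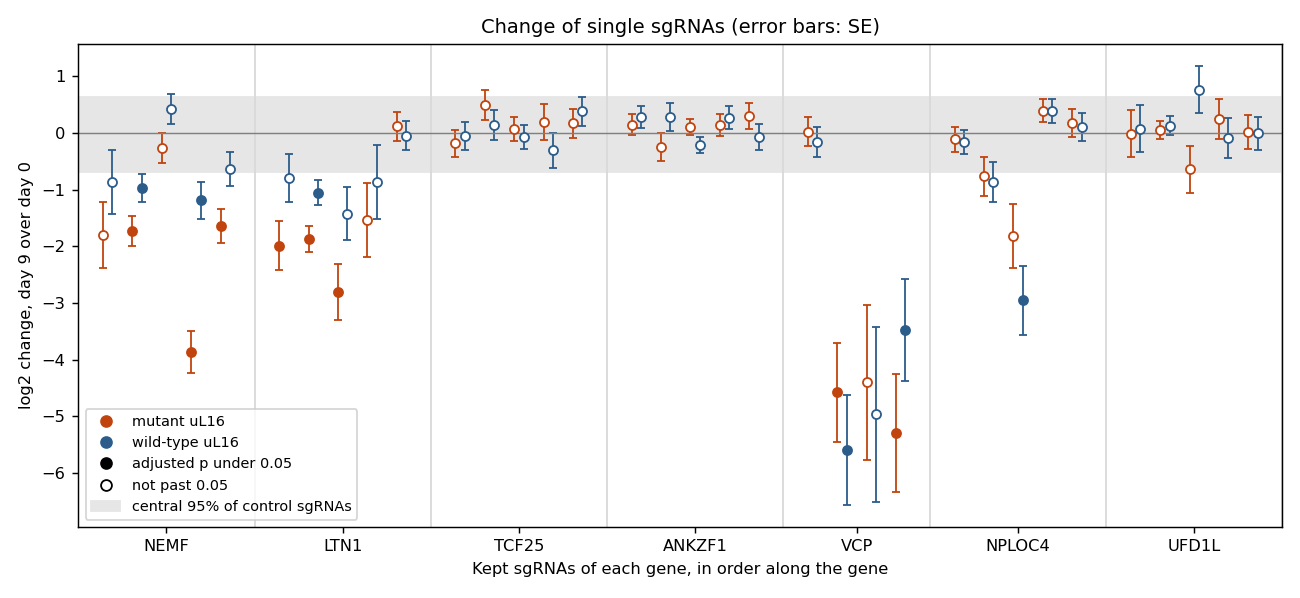
Log2 change from day 0 to day 9 of each kept sgRNA (points, with SE), mutant to the left of wild-type, filled where edgeR's adjusted p over all sgRNAs is under 0.05. The sgRNAs of ANKZF1 and UFD1L are in order of rising position, since the gene strand was not at hand. The grey band spans the central 95% of the non-targeting control sgRNAs, widest limits over both lines. NEMF, LTN1, VCP and NPLOC4 each have sgRNAs far below the band beside others inside it, and all sgRNAs of TCF25 and ANKZF1 lie inside.

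Non-targeting control sgRNAs show what an sgRNA without a target does in these libraries. The central 95% of 1894 of them lay between -0.67 and 0.62 in mutant and between -0.70 and 0.63 in wild-type cells. Below these limits were 13 of the 34 member sgRNAs in mutant cells, where 8.94% of all targeting sgRNAs were, and 12 of 34 in wild-type cells, where 9.09% were. Above them were 0 of 34 in mutant cells (1.94% of all) and 1 of 34 in wild-type cells (2.52% of all), the UFD1L sgRNA at 276 bases. By edgeR's test 8 of 34 fell in mutant cells, where 5.66% of all sgRNAs did, and 6 of 34 fell in wild-type cells, where 5.8% did. Several of these sgRNAs share a target gene, so they are not independent of each other. No member sgRNA rose past the threshold in either line. Leaving out replicate 1 or replicate 2 of wild-type day 0 cut the wild-type count to 3 or 2.

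For LTN1, 4 of the 5 sgRNAs lay within 92 bases of each other and had log2 changes from -2.80 to -1.53 in mutant cells, and 3 of them passed the test. The sgRNA at 0 bases, at -1.99 (SE 0.43, edgeR adjusted p = 0.00253), lost its call without mutant day 9 replicate 1 (-1.71, adjusted p = 0.0735) and with DESeq2 (-2.00, adjusted p = 0.0651). The sgRNA at 43 bases, the most abundant, had 4.39 and 3.69 CPM in mutant cells at day 9, against 15.2 and 14.1 CPM at day 0. Wild-type cells had 8.72 and 8.99 CPM at day 9, against 18.3 and 18.6 CPM at day 0. The replicates of each group lay close together, and the 4 groups did not overlap. Its log2 change was -1.87 (SE 0.23, edgeR adjusted p = 1.12e-06) in mutant and -1.06 (SE 0.22, adjusted p = 0.00152) in wild-type cells. Its neighbour at 47 bases was at -2.80 (SE 0.49) in mutant and -1.43 (SE 0.46) in wild-type cells, the first called and the second not (adjusted p = 0.00022 and 0.0731). The sgRNA at 447 bases stayed level, at 0.11 (SE 0.25) and -0.05 (SE 0.25).

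VCP had the largest losses of single sgRNAs, but its summed value did not pass the test. Summed, VCP was at -0.61 (SE 0.28, edgeR adjusted p = 0.222) in mutant and -0.73 (SE 0.28, adjusted p = 0.102) in wild-type cells. The wild-type value passed without wild-type day 9 replicate 1 (-1.03, adjusted p = 0.0167) and with DESeq2 (adjusted p = 0.0453), in a range over alternatives from 9.1e-06 to 0.541. Its 4 kept sgRNAs comprised 3 with few reads at day 9 and 1 that stayed near its day 0 level. The sgRNA at 0 bases had 7.26 and 9.05 CPM in mutant cells at day 9, against 7.39 and 8.71 CPM at day 0, and in wild-type cells 11.1 and 7.55 CPM at day 9, against 9.69 and 11.2 CPM at day 0. Its day 9 and day 0 libraries overlapped in both lines, with log2 changes of 0.02 (SE 0.26) and -0.17 (SE 0.26). This sgRNA held 64.9% of VCP's day 0 counts and 97.8% of its day 9 counts.

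The other 3, at 482, 515 and 527 bases, lie close together. The sgRNA at 482 bases had 3 and 7 reads in mutant cells at day 9, against 114 and 282 at day 0, and in wild-type cells 3 and 1 at day 9, against 104 and 180 at day 0. Scaled to library totals, 3.91% of its day 0 level was left in mutant and 2.02% in wild-type cells, with exact 95% intervals from 1.86 to 7.26% and from 0.546 to 5.22% that cover counting error only. The log2 change was -4.57 (SE 0.87, edgeR adjusted p = 0.000579) in mutant and -5.60 (SE 0.97, adjusted p = 0.000172) in wild-type cells. The sgRNA at 527 bases had 2.44% left in mutant (interval 0.787 to 5.75%) and 8.83% in wild-type cells (4.75 to 15.1%), and was called in both (edgeR adjusted p = 0.000869 and 0.0142), but not in wild-type cells without wild-type day 0 replicate 1 (0.146) or 2 (0.0563), wild-type day 9 replicate 1 (0.0676) or mutant day 0 replicate 2 (0.0521). Its mutant day 9 libraries held 0 and 5 reads, and without replicate 2 of them the mutant log2 change was -9.57, against -5.30 with all libraries. The one at 515 bases had 5.09% left in mutant (1.63 to 12.1%) and 3.05% in wild-type cells (0.364 to 11.3%), from 5 and 2 reads at day 9, and was called in neither (edgeR adjusted p = 0.0572 and 0.0536).

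The value of VCP depended on how its sgRNAs were weighted. With each sgRNA weighted alike (limma on the mean log2 CPM) VCP was at -3.26 in mutant and -3.03 in wild-type cells (limma adjusted p = 4.82e-06 and 9.1e-06). Without the most abundant sgRNA the summed values were -4.78 and -4.40 (edgeR adjusted p = 1.09e-05 and 3.39e-05). The difference between lines was 0.12 (SE 0.39, interval from -0.68 to 0.92, edgeR adjusted p = 0.986), and the single sgRNAs pointed both ways, from -1.82 to 1.02. The 3 sgRNAs with few reads at day 9 had mean day 0 levels of 0.846 to 2.28 CPM, within the lowest 3.65% of all kept targeting sgRNAs, where the level one had 9.24 CPM. A VCP sgRNA left out for low counts had 16 and 0 reads in mutant and 0 and 7 in wild-type cells at day 0, and 0 in all 4 day 9 libraries.

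**Figure D4:**
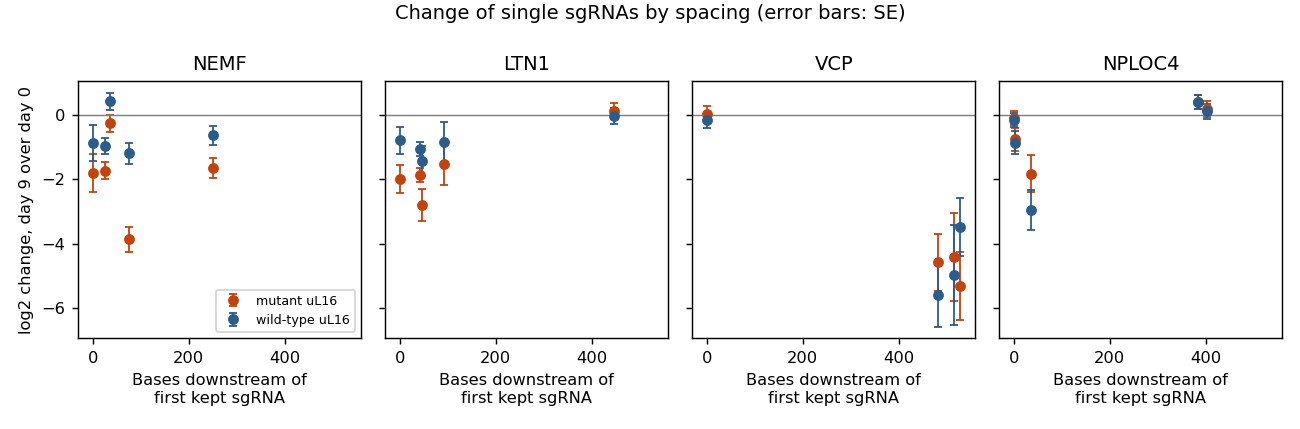
Log2 change from day 0 to day 9 of each kept sgRNA (points, with SE) against its distance in bases downstream of the gene's first kept sgRNA, for NEMF, LTN1, VCP and NPLOC4. The sgRNAs inside the range of the controls in both lines lie at 35 bases for NEMF, 447 for LTN1, 0 for VCP, and 0, 384 and 403 for NPLOC4. Distances start at the first kept sgRNA and not at the start site, so places cannot be compared between genes. A link between place and change was not tested.

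NPLOC4, a VCP cofactor that binds ubiquitin chains, showed the same mixture on a smaller scale. Summed, it was at -0.08 (SE 0.12, edgeR adjusted p = 0.809) in mutant and -0.15 (SE 0.12, adjusted p = 0.529) in wild-type cells. Its sgRNA at 35 bases had 1.34 and 0.958 CPM in mutant cells at day 9, against 3.97 and 4.08 CPM at day 0. Wild-type cells had 0.228 and 0.892 CPM at day 9, against 2.66 and 6.08 CPM at day 0. Day 9 lay below day 0 in both lines, although the wild-type replicates at each day differed widely. The log2 change was -1.82 (SE 0.57, edgeR adjusted p = 0.0558) in mutant and -2.95 (SE 0.61, adjusted p = 0.00136) in wild-type cells. Without wild-type day 0 replicate 2 the wild-type value was -2.24 and did not pass (adjusted p = 0.118). This sgRNA held 9.3% of the gene's day 0 counts. The sgRNA at 3 bases was at -0.77 (SE 0.34) and -0.87 (SE 0.35), and those at 0, 384 and 403 bases were between -0.12 and 0.39 in mutant and between -0.16 and 0.39 in wild-type cells. With sgRNAs weighted alike, NPLOC4 was at -0.42 in mutant cells (limma adjusted p = 0.103) and at -0.72 in wild-type cells, where it passed (limma adjusted p = 0.00548).

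UFD1L, the partner of NPLOC4, was called in neither line. It had 52.4 and 48.1 CPM in mutant cells at day 9, against 50.9 and 49.5 CPM at day 0, and 48.5 and 49.4 CPM in wild-type cells at day 9, against 45.1 and 46.7 CPM at day 0. All 8 libraries lay between 45.1 and 52.4 CPM. The log2 change was -0.00075 (SE 0.11, edgeR adjusted p = 0.998) in mutant and 0.09 (SE 0.11, adjusted p = 0.708) in wild-type cells, and its sgRNAs lay between -0.64 and 0.76 over both lines. The one at 276 bases gave both of these limits, -0.64 in mutant and 0.76 in wild-type cells, and its difference of -1.40 (SE 0.59) did not pass over all sgRNAs (edgeR adjusted p = 0.959). These 5 sgRNAs also lie within 1000 bases of sgRNAs against CDC45, a replication factor, which itself was at 0.01 (SE 0.10) in mutant and -0.15 (SE 0.10) in wild-type cells.

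TCF25, which acts with LTN1, had 46.5 and 52.6 CPM in mutant cells at day 9, against 42.9 and 49.0 CPM at day 0. In wild-type cells it had 49.6 and 51.8 CPM at day 9, against 51.9 and 48.6 CPM at day 0. Its libraries overlapped between days in both lines, with log2 changes of 0.11 (SE 0.11) in mutant and 0.01 (SE 0.11) in wild-type cells. ANKZF1, which releases the chain, had 80.7 and 91.7 CPM in mutant cells at day 9, against 80.4 and 83.6 CPM at day 0, and in wild-type cells 79.8 and 90.5 CPM at day 9, against 86.3 and 79.2 CPM at day 0. It was at 0.07 (SE 0.09) and 0.04 (SE 0.09). Neither was called (edgeR adjusted p from 0.71 to 0.974), the intervals ran from -0.12 to 0.33 (TCF25) and from -0.11 to 0.25 (ANKZF1) in mutant cells, and no single sgRNA of either lay outside the range of the controls. All 5 ANKZF1 sgRNAs lie within 1000 bases of sgRNAs against ATG9A, an autophagy protein, which was at -0.02 (SE 0.10) in mutant cells. The knockdown by these sgRNAs was not measured.

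In order of the summed change in mutant cells the members ran NEMF, LTN1, VCP, NPLOC4, UFD1L, ANKZF1 and TCF25. The 95% intervals of each neighbouring pair in this order overlapped, while those of LTN1 (-1.56 to -0.95) and NPLOC4 (-0.33 to 0.16) did not. Differences between members were not tested. With sgRNAs weighted alike VCP was lowest (-3.26, before NEMF at -1.88 and LTN1 at -1.70). The sgRNAs of VCP spread over 5.32 log2 units in mutant cells and those of NEMF over 3.59, wider than in 99.6% and 96.4% of 17542 genes with at least 4 kept sgRNAs. For LTN1 and NPLOC4 this share was 94.4% and 91.3%, and for TCF25, ANKZF1 and UFD1L 49.2%, 32.1% and 66.4%. The genes compared include those that did not fall, and the spread of VCP rests on sgRNAs with few reads at day 9.

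The genes whose levels over the 8 libraries were nearest to those of NEMF, by the root mean square distance of centred log2 CPM, were LSG1 (0.16), TUBG1 (0.17) and NOL8 (0.18). LSG1 is a GTPase of cytoplasmic 60S maturation, TUBG1 is gamma-tubulin, and NOL8 is a nucleolar protein. LTN1 came in place 7 by this distance (0.19) and NEMF in place 23 from LTN1. The nearest to LTN1 were MEMO1 and DPY30 (0.12 each), which share all 5 sgRNA positions and cannot be told apart, and the transcription elongation factor IWS1 (0.15). TUBG1 and NOL8 have sgRNAs within 1000 bases of those of FAM134C and CENPP. These distances describe the libraries and carry no test.

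Other genes linked to ribosome stalling gave a list of 16 genes, all tested. It covered the sensing of stalled ribosomes, subunit splitting, repression of the mRNA and the handling of released chains and tRNAs. In mutant cells 5 of 16 fell and 0 rose, where 9.07% of all genes fell, with a median log2 change of -0.09 against 0.01 over all genes. In wild-type cells 7 of 16 fell and 0 rose, where 9.28% of all genes fell, with a median of -0.17 against 0.01. ABCE1, which splits the subunits and shares 1 of 5 sgRNA positions with ANAPC10, was at -3.34 (SE 0.20) in mutant and -2.46 (SE 0.19) in wild-type cells. PELO, a rescue factor for stalled ribosomes, was at -1.62 (SE 0.31) and -1.35 (SE 0.31) in the same order. GNB2L1, the 40S protein RACK1, was at -0.71 (SE 0.13) in mutant and -1.24 (SE 0.13) in wild-type cells, and all 3 genes fell past the threshold in both lines. In the difference 0 of 16 passed in edgeR, 2 had an unadjusted p under 0.05, and ABCE1 had the smallest p, with -0.88 (SE 0.26, edgeR adjusted p = 0.693). The other was GNB2L1, which pointed the opposite way, at 0.53 (SE 0.18, edgeR adjusted p = 0.865).

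Among 31 other p97 cofactors and ubiquitin handling genes, 1 fell and 1 rose in mutant cells by edgeR (median 0.02). In wild-type cells 0 passed in edgeR (median -0.03), and 3 had an unadjusted p under 0.05. Over all genes, 9.07% fell and 0.798% rose in mutant cells, and 9.28% fell and 0.986% rose in wild-type cells. DERL2, a membrane protein of ER-associated degradation whose sgRNAs lie within 1000 bases of those of MIS12, fell by 0.64 (SE 0.12, edgeR adjusted p = 6.82e-05) in mutant cells. UBE4A, a ubiquitin ligase, rose there by 0.34 (SE 0.11, edgeR adjusted p = 0.0429). In wild-type cells DERL2 was at -0.24 (SE 0.12) and UBE4A at 0.16 (SE 0.11), the same directions, and neither was called. In the difference 0 of 31 passed, 2 had an unadjusted p under 0.05, and SPRTN, a DNA-protein crosslink protease, had the smallest p at -0.42 (SE 0.16, edgeR adjusted p = 0.865). The SPRTN sgRNAs lie within 1000 bases of those of EXOC8.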

How the data were processed

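The authors deposited raw read counts per sgRNA, 1 column per library, made, per the file headers, from reads cut to bases 1 to 39 and matched forward to the human CRISPRi version 2 library. Which program did this is not stated. The submitters' processing notes name hg38, but the positions in the names of 5 of the 7 genes' sgRNAs lie outside the gene in GRCh38.p14 by over 5 kb, so those positions serve for spacing only. Of 209070 sgRNAs, 103686 were 0 in all 8 libraries.

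Groups and replicate numbers come from the labels. Kept sgRNAs (mean count at least 20) of P1 or P1P2 sets were summed per gene (at least 3 sgRNAs; 87897 sgRNAs, 17547 genes), scaled by TMM and fitted in R 4.3.3 with edgeR 4.0.16 (glmQLFit, glmQLFTest), with 1 mean for each of 4 groups over 8 libraries and 4 residual degrees of freedom. P2 sets and the 15860 sgRNAs listed by transcript were not used. Single sgRNAs were fitted likewise together with 1894 controls. P-values were Benjamini-Hochberg adjusted over all features. Alternatives used DESeq2 1.42.0 and limma 3.58.1 (prior count 2), control scaling, 2 other filters, fewer sgRNAs or libraries and a replicate block. The distance used log2 of CPM plus 0.5. Replicates differed by more than read sampling noise (chi-square per degree of freedom 12.8 to 18.9) and were each counted, which does not show that they came from separate cultures. Amplicon reads carried no molecular identifiers, so intervals cover counting error only. The fit was tested on simulated data. Text names all members, up to 3 called genes per list and contrast with the largest change, the gene of each list with the smallest p in the difference, and the 3 nearest genes of each called member. Members and lists were chosen with earlier results of these data known.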

Additional observations from a re-analysis of the deposited data

How the results depend on the processing

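In mutant cells NEMF and LTN1 were called under every alternative run, and VCP joined them (3 members) with limma and without the most abundant sgRNA. In wild-type cells the count was 3 with DESeq2 (VCP added), 4 with limma on the mean log2 CPM (NEMF, LTN1, VCP and NPLOC4), 1 without the most abundant sgRNA of each gene (VCP), and 1 to 2 when single libraries were left out. In the difference it was 0 to 1 when single libraries were left out and 1 (NEMF) with the replicate number as a block, where NEMF was at -0.85 (edgeR adjusted p = 0.0291). Over single sgRNAs the count in wild-type cells was 2 to 8 when libraries were left out, with 3 without wild-type day 0 replicate 1 and 2 without replicate 2. In the difference it was 1 with the replicate block and 1 with DESeq2, each time the NEMF sgRNA at 76 bases. The block is not a known pairing: deviations of libraries with the same number correlated by 0.04 in mutant and 0.02 in wild-type cells over 17547 genes. The cause of these shifts was not tested.

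Signs turned only for values that were not called. For UFD1L in mutant cells the value was 0.00054 with DESeq2 and -0.0610 to 0.0638 with libraries left out, for NPLOC4 -0.19 to 0.0082 and for ANKZF1 -0.0212 to 0.16. In wild-type cells TCF25 was at -0.026 with control scaling and -0.0351 to 0.0607 with libraries left out, and ANKZF1 at -0.0547 to 0.13. In the difference ANKZF1 was at -0.039 with limma, -0.11 without the most abundant sgRNA and -0.0611 to 0.13 with libraries left out. There VCP was at -0.23, -0.37 and -0.12 to 0.42, and NPLOC4 at -0.0525 to 0.18 with libraries left out. At a mean count of at least 100 VCP kept too few sgRNAs to be tested.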
